A study of Bos taurus with 6 samples.

Results

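Imprinted genes are transcribed mainly from the copy inherited from 1 parent. The choice is set by DNA methylation placed in the egg or the sperm, which has to be copied at every division of the embryo and of cells derived from it. Many paternally expressed genes promote growth of the fetus and placenta or act in the brain, and imprinted expression is known to drift in cultured pluripotent cells. The genes described here were 9 named genes that are expressed from the paternal copy: MEST, DLK1, PEG10, SGCE, NDN, PEG3, PLAGL1, SNRPN and NNAT. They were chosen by name, with IGF2 left out of the set and with earlier results of these data known. They were matched by symbol in the deposited TPM table and by Entrez identifier in the count table. All 9 were among the 21357 genes of the TPM table and 8 were among the 19163 genes of the count table, so PEG3 was analysed from TPM only.

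The cells were F7, 1 line of Holstein Friesian bovine embryonic stem cells derived from embryos fertilised in vitro. They were grown for 15 passages on mouse embryonic fibroblasts (MEFs) that had been treated with mitomycin C, which stops division but leaves the feeders alive (MC-F7, also written 1M-F7 in the labels), or on MEFs killed by fixation in methanol (MT-F7). The composition of the medium was the same, but it was renewed daily for MC-F7 and on alternate days for MT-F7, so the feeder and the feeding interval cannot be told apart. Before RNA extraction both groups went through a step in which dissociated cells stood on gelatin so that feeders could settle, and only floating cells were taken. RNA-seq gave 3 libraries in each group. No source stated that they came from separate cultures, so p-values measure the spread between these libraries, which may be technical. No parental allele was distinguished, so each value adds the transcripts of both copies, and in bulk RNA more cells of a type and more RNA per cell cannot be told apart.

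The MC-F7 libraries held 21958386 to 23414319 counts on genes and the MT-F7 libraries 24271208 to 24933430. Genes of the mitochondrial genome took 16.3% to 28.3% of the counts in MC-F7 and 18.0% to 27.9% in MT-F7, and replicate 3 had more than the other libraries of its group in both. The groups were compared over 13001 genes with the quasi-likelihood test of edgeR, and "rose" and "fell" are used for genes with a Benjamini-Hochberg adjusted p under 0.05. Levels within a gene are given as counts or as CPM (counts scaled to a common library size by TMM), and levels between genes as the deposited TPM, which takes gene length into account. The deposited TPM was not scaled to the depth of each library, so differences between groups on that scale include the somewhat greater depth of MT-F7.

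Of the 8 members in the count table, all were tested, 5 rose in MT-F7, none fell and 3 did not pass the test. Among all tested genes, 23.2% passed in either direction, 11.9% higher and 11.3% lower in MT-F7. The 5 that rose were MEST, DLK1, PEG10, SGCE and NDN, and the 3 that did not pass were PLAGL1, SNRPN and NNAT. PEG3, tested on TPM only, was also higher in MT-F7. The median log2 fold change of the 8 members was 1.31, beside -0.0026 over all tested genes, and 3 members changed by more than 4-fold. Because the members were chosen with earlier results known, the contrast with all tested genes is a description. All 3 MT-F7 libraries lay above all 3 MC-F7 libraries for 5 members, and below them for 1. Over all tested genes these shares were 19.9% and 20.0%.

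**Figure D1:**
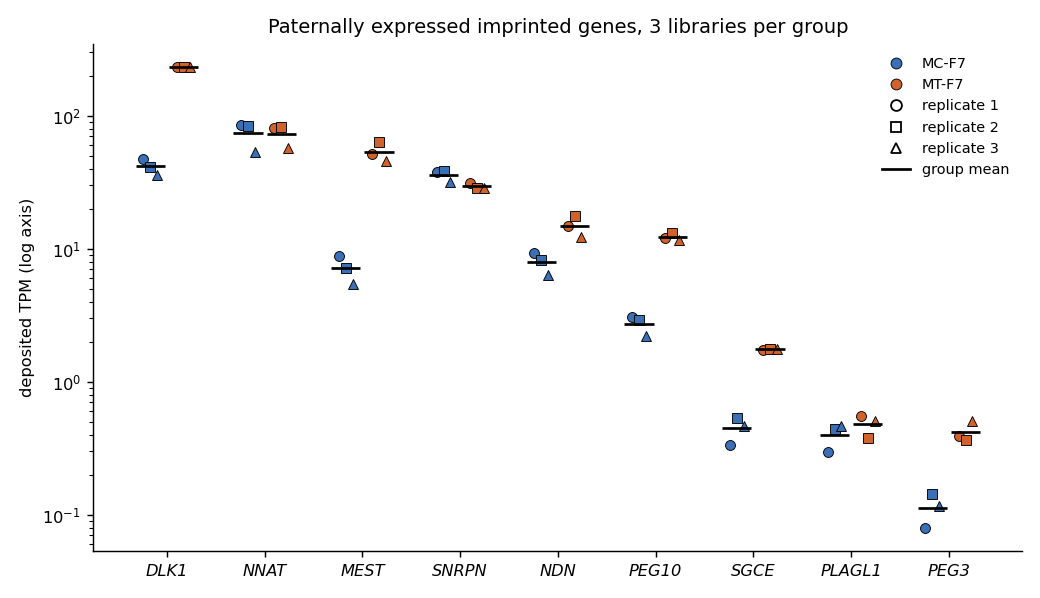
Deposited TPM (log axis) of the 9 paternally expressed genes in each of the 6 libraries, with MC-F7 in blue, MT-F7 in orange, 1 symbol shape for each replicate number and a line at each group mean. DLK1, MEST, PEG10, SGCE, NDN and PEG3 separate between the groups with MT-F7 above, SNRPN separates with MT-F7 below, and NNAT and PLAGL1 overlap.

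DLK1 (Entrez 281117), a membrane protein related to the Notch ligands that holds back the differentiation of fat cell and other precursors, was the most abundant member in MT-F7. Its counts were 9986, 8662 and 7551 in the MC-F7 libraries, against 48531, 48684 and 48824 in the MT-F7 libraries. The groups were far apart, with no MC-F7 library near any MT-F7 library. The level was 384 ± 49.5 CPM in MC-F7 and 1962 ± 99.5 CPM in MT-F7 (SD, n = 3), a 5.10-fold difference. The log2 fold change was 2.35 ± 0.172 (SE, 95% interval 1.98 to 2.72, adjusted p = 1.92e-06 by edgeR's quasi-likelihood test). DLK1 alone took 0.0344% to 0.0433% of all counts in MC-F7 and 0.195% to 0.201% in MT-F7. Ordered by mean TPM among the 21357 genes, it moved from position 347 in MC-F7 to position 87 in MT-F7.

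MEST (Entrez 404180) encodes a protein of the alpha/beta hydrolase fold family and is a gene of the embryonic mesoderm whose loss restrains growth. Its counts were 2658, 2146 and 1648 in MC-F7, against 15510, 18980 and 13712 in MT-F7, so that every MT-F7 library stood well above every MC-F7 library. The level rose from 94.5 ± 20.8 CPM to 644 ± 78.8 CPM (SD, n = 3), which was 6.82-fold and the largest fold change among the 8 members. The log2 fold change was 2.77 ± 0.194 (SE, 95% interval 2.35 to 3.19, edgeR adjusted p = 1.28e-06), the 86th highest of the 13001 tested genes. By mean TPM the gene moved from position 2043 to position 285.

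PEG10 and SGCE lie side by side and are known to start from 1 shared promoter region in opposite directions. PEG10 (Entrez 618138), a gene derived from a retrotransposon and needed for the placenta, had 2178, 2084 and 1582 counts in MC-F7, against 8576, 9450 and 8317 in MT-F7. Its level went from 85.5 ± 11.2 CPM to 353 ± 11.7 CPM (SD, n = 3), which was 4.13-fold, and gave a log2 fold change of 2.05 ± 0.157 (SE, 95% interval 1.71 to 2.39, edgeR adjusted p = 2.58e-06). SGCE (Entrez 407209), epsilon-sarcoglycan of the dystrophin-associated membrane complex, had 85, 136 and 117 counts in MC-F7, against 439, 447 and 443 in MT-F7. Its level went from 4.95 ± 1.04 CPM to 17.8 ± 0.834 CPM (SD, n = 3), which was 3.60-fold, and gave a log2 fold change of 1.85 ± 0.200 (SE, 95% interval 1.41 to 2.28, edgeR adjusted p = 3.51e-05). Neither gene overlapped between the groups. SGCE was counted 5.94 times per 100 PEG10 counts in MC-F7 and 5.06 times in MT-F7 (means of 3 libraries), and the libraries of the groups overlapped in this ratio (two-sided exact permutation test, p = 0.5). The difference in this ratio was smaller than the spread between libraries, and PEG10 stayed far more abundant, at 12.3 TPM against 1.75 TPM for SGCE in MT-F7.

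NDN (Entrez 386664) encodes necdin, a growth-restraining protein of the MAGE family that is made in neurons. It had 1646, 1460 and 1122 counts in MC-F7, against 2612, 3110 and 2170 in MT-F7. The highest MC-F7 library was below the lowest MT-F7 library. The level rose 1.70-fold, from 61.9 ± 10.2 CPM to 105 ± 14.0 CPM (SD, n = 3), and the log2 fold change was 0.77 ± 0.168 (SE, 95% interval 0.40 to 1.13, edgeR adjusted p = 0.00549). This was the smallest change among the 5 that passed.

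PEG3, a large zinc finger protein that takes part in growth and maternal behaviour, was the least abundant member in MC-F7 and overlapped with PLAGL1 at the lower end in MT-F7. Its TPM was 0.0796, 0.143 and 0.116 in MC-F7, against 0.387, 0.364 and 0.511 in MT-F7. The MT-F7 libraries were all higher, as for 6 of the 9 members in TPM and for 21.3% of the 16900 genes tested on TPM. The mean was 0.113 ± 0.0320 TPM in MC-F7 and 0.421 ± 0.0789 TPM in MT-F7 (SD, n = 3), a 3.72-fold ratio of means. By limma on log2(TPM + 0.1), where 9.36% of the genes were called higher in MT-F7, the difference was 1.29 ± 0.187 (SE, 95% interval 0.85 to 1.73, adjusted p = 0.00688). With each library scaled to the same sum, an alternative chosen after the data were seen, the difference was 1.26 (limma adjusted p = 0.00730). The fit on the deposited TPM called 1581 genes higher and 845 lower, so that 65.2% of its calls were higher, against 59.6% after that scaling and 51.5% in the edgeR fit on counts. A fold change on the log2(TPM + 0.1) scale understates the change of such a low gene. Its 6 TPM values stood in the ratio of the whole numbers 96, 173, 140, 467, 439 and 616, which may be its read counts or a fraction of them. With these numbers added to the count table, an alternative chosen after the data were seen, edgeR gave a log2 fold change of 1.78 ± 0.237 (SE, adjusted p = 0.000179), where 12.0% of genes were called higher.

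PLAGL1 (Entrez 539761), a zinc finger transcription factor that can stop the cell cycle, had 103, 154 and 162 counts in MC-F7, against 192, 132 and 176 in MT-F7. The libraries overlapped, with means of 6.17 ± 1.52 CPM and 6.74 ± 1.42 CPM (SD, n = 3). The log2 fold change of 0.13 ± 0.248 (SE, 95% interval -0.41 to 0.66, edgeR adjusted p = 0.757) did not pass the test, and its interval leaves room for a modest change in either direction.

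SNRPN (Entrez 780877), the SmN protein of spliceosomal particles, was the only member whose MT-F7 libraries were all lower. Its counts were 6191, 6325 and 5264 in MC-F7, against 5116, 4737 and 4736 in MT-F7. The raw counts nearly met, with 5264 against 5116, and on the CPM scale the means were 261 ± 13.9 and 196 ± 11.3 (SD, n = 3). The log2 fold change was -0.41 ± 0.142 (SE, 95% interval -0.72 to -0.10). Its edgeR adjusted p of 0.0536 was just over the threshold, and it was between 0.00799 and 0.197 over the 17 alternatives.

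NNAT (Entrez 353114), a small membrane protein of the developing brain, was the most abundant member in MC-F7, at 73.8 ± 18.1 TPM, and was at 73.3 ± 13.6 TPM in MT-F7 (SD, n = 3). Its counts were 11768, 11461 and 7309 in MC-F7, against 11117, 11254 and 7949 in MT-F7. Replicate 3 was the lowest in both groups, and the groups overlapped. The log2 fold change of -0.14 ± 0.187 (SE, 95% interval -0.54 to 0.27, edgeR adjusted p = 0.639) did not pass the test. On log2(TPM + 0.1) it was 0.0042 as deposited and -0.046 with each library scaled to the same sum. Both were small beside their SEs of 0.240 and 0.229, and the cause of the change of sign was not tested.

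The order of the members changed between the groups. In MC-F7 it was NNAT, then DLK1 (41.6 TPM) and SNRPN (35.9 TPM), NDN (7.97 TPM) and MEST (7.13 TPM), PEG10 (2.73 TPM), SGCE (0.445 TPM) and PLAGL1 (0.400 TPM), and PEG3. The libraries of DLK1 and SNRPN overlapped there, as did those of NDN and MEST and those of SGCE and PLAGL1, so the order within these pairs was not resolved. In MT-F7 DLK1 came first with 232 ± 0.697 TPM (SD, n = 3), above NNAT. MEST followed with 53.3 TPM, SNRPN with 29.5 TPM, NDN with 14.9 TPM and PEG10 with 12.3 TPM, ahead of SGCE, PLAGL1 (0.477 TPM) and PEG3 (0.421 TPM). Here the libraries overlapped between NNAT and MEST, between NDN and PEG10 and between PLAGL1 and PEG3. MEST was thus below SNRPN in every MC-F7 library and above it in every MT-F7 library.

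The pattern over the 6 libraries was compared between members as the root mean square difference of log2 CPM after each gene was centred on its own mean, where 0 is the same pattern. DLK1 and PEG10 were the closest pair, at 0.173. The member nearest to MEST was DLK1, at 0.268, and the member nearest to SGCE was PEG10, at 0.301. Among 11929 genes that averaged 1 CPM or more, the number closer than the nearest member was 12 for DLK1, 16 for MEST, 22 for PEG10 and 109 for SGCE. For NDN, PLAGL1, SNRPN and NNAT it was between 3086 and 5281, with SNRPN and NNAT 0.251 apart. Among all genes, the closest to MEST was RAX, to DLK1 PCP4, to PEG10 SFRP2 and to SGCE AHNAK. The closest to NDN was MACROH2A2, to PLAGL1 CACNA2D1, to SNRPN ATG101 and to NNAT MRPL51. The libraries share their depth and scaling across genes, and these distances are a description. They depend in large part on the size of the change between the groups, so few genes can lie close to members with large changes. The counts of closer genes therefore do not show shared regulation.

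Imprinted genes often lie in groups under 1 control region, so the members were set beside the nearest tested gene on either side in the gene order of RefSeq on the bovine assembly ARS-UCD2.0. Of the 14 nearest genes that were not members, 3 rose and 1 fell. RTL1 rose beside DLK1, CASD1 beside SGCE and BLCAP beside NNAT, and LOC100849023 fell beside SNRPN. In a wider list of genes near the members, 17 were tested, of which 4 rose and 2 fell, with a median log2 fold change of 0.18. These shares were 23.5% and 11.8%, against 11.9% and 11.3% of all tested genes. Over the alternatives the counts of this list ran from 2 to 7 higher and from 0 to 3 lower. The strand used for counting was not given in the sources used here, so reads cannot be divided between genes that overlap, which in RefSeq are MEST and COPG2, NNAT and BLCAP, PLAGL1 and ZC2HC1B, SNRPN and SNURF, and PEG3 and APEG3.

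**Figure D2:**
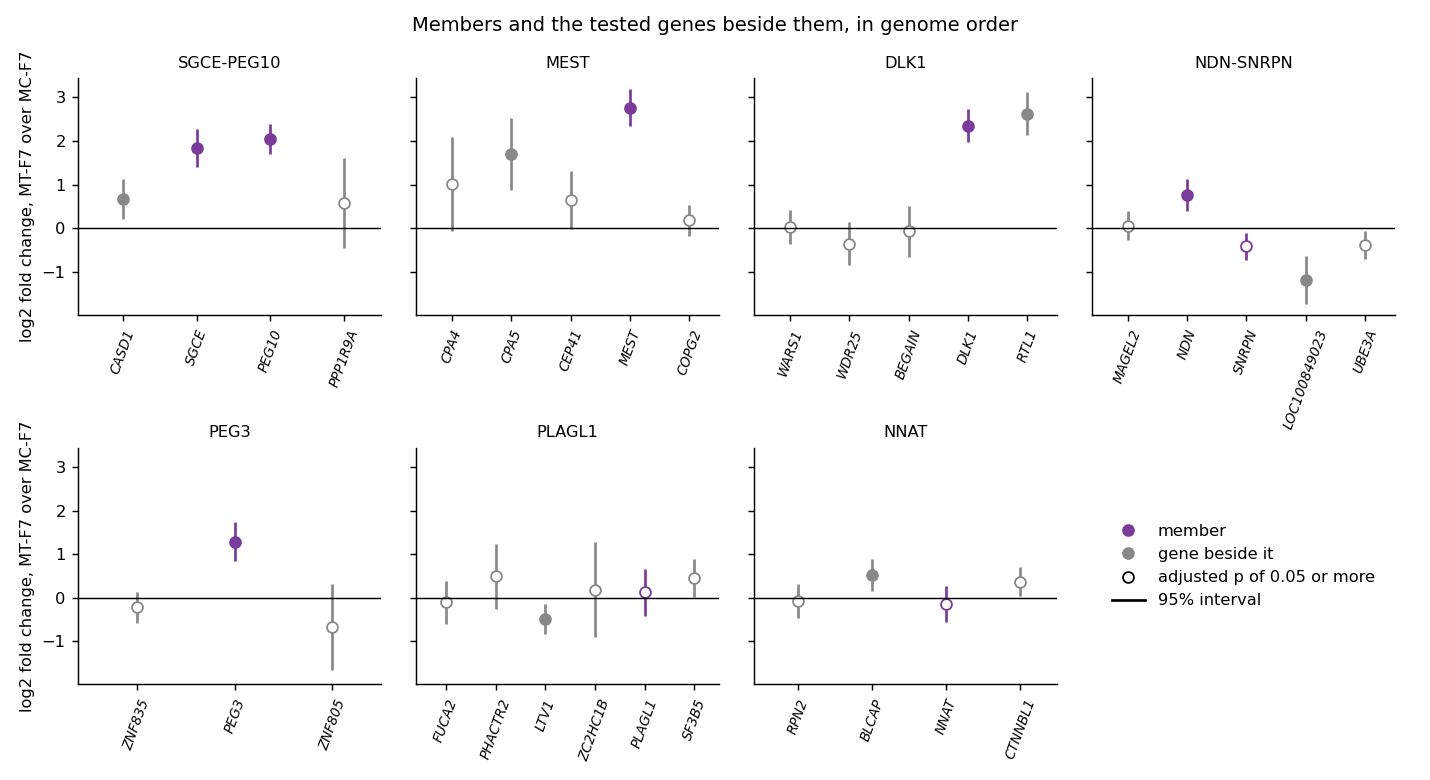
Log2 fold change of MT-F7 over MC-F7 with its 95% interval for the members (purple) and for genes beside them (grey: the nearest tested gene on either side and listed genes within 500000 bases), in RefSeq order. Filled points have an adjusted p under 0.05, and PEG3 is on the log2(TPM + 0.1) scale. MEST stands above COPG2, DLK1 and RTL1 stand above BEGAIN, and NDN and SNRPN lie on opposite sides of 0.

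On the DLK1 side, RTL1, a retrotransposon-derived gene of the same imprinted cluster that is also expressed from the paternal copy, had 101, 125 and 57 counts in MC-F7, against 602, 685 and 607 in MT-F7. Its log2 fold change was 2.62 (edgeR adjusted p = 6.35e-06). RTL1 was counted 1.07 times per 100 DLK1 counts in MC-F7 and 1.30 times in MT-F7, and the groups overlapped (two-sided exact permutation test, p = 0.4). BEGAIN, the nearest tested gene on the other side, had a log2 fold change of -0.06 (adjusted p = 0.890), which turned positive under 4 of 17 alternatives. Beside MEST, COPG2, which overlaps it, was at 0.18 (adjusted p = 0.465) and CEP41, a centrosomal protein gene, at 0.65 (adjusted p = 0.146), neither of which passed edgeR's test. CPA5, a carboxypeptidase gene farther out, rose by a log2 fold change of 1.70 (adjusted p = 0.00634) from 1.54 ± 0.826 CPM to 4.99 ± 1.74 CPM (SD, n = 3).

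Beside SGCE, CASD1, a sialic acid O-acetyltransferase, rose by a log2 fold change of 0.67 (edgeR adjusted p = 0.0365), a call that 5 of the 17 alternatives lost. Beside PEG10, PPP1R9A (neurabin) was at 0.59 (edgeR adjusted p = 0.413), from 1.26 ± 0.677 CPM to 1.89 ± 0.853 CPM (SD, n = 3). PON2, a paraoxonase farther along this region, rose by a log2 fold change of 1.25 (edgeR adjusted p = 0.00031).

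The members of the NDN and SNRPN region, which in humans is the one affected in Prader-Willi syndrome, did not move together. NDN was counted 23.7 times per 100 SNRPN counts in MC-F7 and 54.2 times in MT-F7, with every MT-F7 library higher (two-sided exact permutation test, p = 0.1, the smallest that 3 against 3 libraries can give). MAGEL2, another paternally expressed MAGE gene next to NDN, was at 23.8 ± 1.04 CPM in MC-F7 and 24.9 ± 2.82 CPM in MT-F7 (SD, n = 3), with a log2 fold change of 0.06 (edgeR adjusted p = 0.814). NDN per 100 MAGEL2 counts went from 261 to 424, again with every MT-F7 library higher (two-sided exact permutation test, p = 0.1). On the other side of SNRPN, LOC100849023 fell by 1.18 on the log2 scale (edgeR adjusted p = 0.00515), a call that 2 of the 17 alternatives lost.

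NNAT lies within the BLCAP gene in mammals. BLCAP rose by a log2 fold change of 0.52 (edgeR adjusted p = 0.0360), a call that 4 of the 17 alternatives lost, and CTNNBL1 on the other side was at 0.37 (adjusted p = 0.102). Beside PLAGL1, ZC2HC1B was at 0.19 (adjusted p = 0.828) and the splicing factor gene SF3B5 at 0.45 (adjusted p = 0.121). Beside PEG3, ZNF835 was at -0.22 (adjusted p = 0.367) and ZNF805 at -0.66 (adjusted p = 0.320), both from edgeR.

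**Figure D3:**
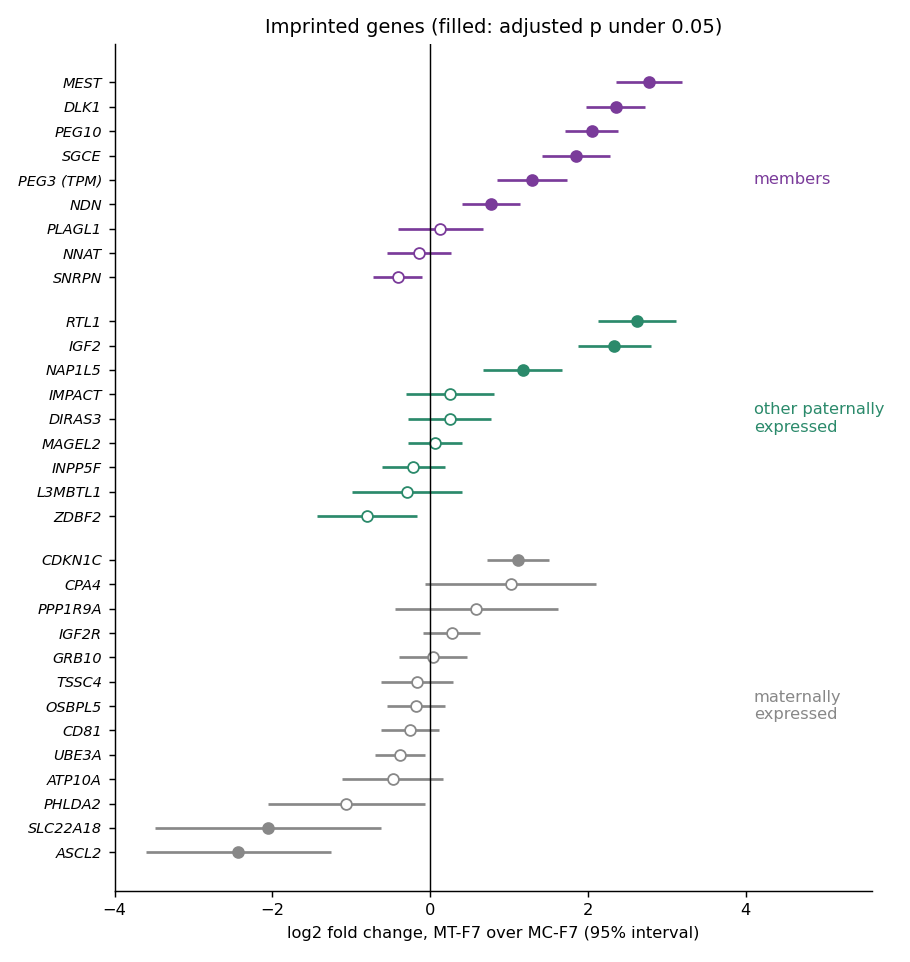
Log2 fold change of MT-F7 over MC-F7 with its 95% interval for the members (purple), other paternally expressed genes (green) and maternally expressed genes (grey), with filled points for an adjusted p under 0.05 and PEG3 on the log2(TPM + 0.1) scale. In the 3 lists, 6, 3 and 1 genes lie at the right as filled points, and both filled points at the left are genes listed as maternally expressed.

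Other genes listed as paternally expressed were read in the same fit. Whether each gene of this list and of the maternal list below is imprinted in these cells was not tested. Of 15 listed, 10 were in the count table and 9 were tested, of which 3 rose and none fell, with a median log2 fold change of 0.24. Over all tested genes 11.9% rose and 11.3% fell. The 3 that rose were RTL1, IGF2 and NAP1L5. IGF2, the fetal insulin-like growth factor, went from 9.06 ± 1.98 CPM to 45.7 ± 10.2 CPM (SD, n = 3), and its log2 fold change was 2.33 (edgeR adjusted p = 8.73e-06). NAP1L5, a nucleosome assembly protein gene, went from 4.14 ± 0.506 CPM to 9.32 ± 2.11 CPM, and its log2 fold change was 1.17 (adjusted p = 0.00294). The other 6 did not pass, and their log2 fold changes ran from -0.81 (ZDBF2) to 0.25 (IMPACT).

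Of 20 genes listed as maternally expressed 13 were tested, of which 1 rose and 2 fell, with a median of -0.18. These shares were 7.69% and 15.4%, against 11.9% and 11.3% of all tested genes. CDKN1C, an inhibitor of the cell cycle kinases and a brake on growth, rose from 18.0 ± 3.49 CPM to 38.9 ± 5.18 CPM (SD, n = 3), with a log2 fold change of 1.11 (edgeR adjusted p = 0.00078). The 2 that fell, ASCL2 and SLC22A18, averaged under 2 CPM in both groups. IGF2R, the receptor that removes IGF2, had a log2 fold change of 0.27 (adjusted p = 0.271), and the noncoding RNAs H19 and MEG3, from the clusters of IGF2 and DLK1, were not analysed here.

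A list of genes that place, keep, remove or read DNA methylation held TET1, TET2, TET3 and CTCF beside those named below. Of its 15 tested genes, 2 rose and 2 fell, with a median log2 fold change of 0.06. These shares, 13.3% in each direction, were near the 11.9% and 11.3% of all tested genes. UHRF1, which brings the maintenance methyltransferase to newly copied DNA, rose from 113 ± 6.47 CPM to 292 ± 27.9 CPM (SD, n = 3), with a log2 fold change of 1.37 (edgeR adjusted p = 3.57e-05). DNMT1, that methyltransferase, rose by a log2 fold change of 0.62 (adjusted p = 0.00860). DNMT3B, a de novo methyltransferase, fell by 1.20 on the log2 scale (adjusted p = 0.000251), from 448 ± 37.2 CPM to 195 ± 33.9 CPM. HELLS, a chromatin remodeller needed for DNA methylation, fell by 0.90 (adjusted p = 0.00106). ZFP57 and ZNF445, zinc finger proteins that protect imprints, were at -0.25 (adjusted p = 0.579) and -0.01 (adjusted p = 0.986), and their partner TRIM28 was at 618 ± 39.1 CPM in MC-F7 and 614 ± 28.1 CPM in MT-F7. Methylation itself was not measured.

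Of 23 tested partners and relatives of the members, 5 rose and 2 fell, with a median log2 fold change of -0.06. These shares were 21.7% and 8.7%, against 11.9% and 11.3% of all tested genes. Around SGCE, the dystrophin gene DMD rose by a log2 fold change of 2.16 (edgeR adjusted p = 1.14e-05), from 17.3 ± 4.27 CPM to 77.6 ± 13.2 CPM (SD, n = 3). SGCA, alpha-sarcoglycan, fell by 2.64 (adjusted p = 0.00012), from 5.53 ± 0.958 CPM to 0.879 ± 0.366 CPM, while beta-sarcoglycan SGCB rose by a log2 fold change of 1.08 (adjusted p = 0.00416; this gene was picked after its value was seen). RTL5, a relative of PEG10 and RTL1, rose by a log2 fold change of 1.26 (adjusted p = 0.000196). For DLK1, NOTCH1, a receptor it can bind, rose by a log2 fold change of 1.13 (adjusted p = 0.00212), and its relative DLK2 was at 0.05 (adjusted p = 0.942). The 7 listed core spliceosomal genes from SNRPB to SNRPG, which are partners or relatives of SNRPN, all missed the threshold. Their log2 fold changes ran from -0.38 (SNRPD3) to 0.30 (SNRPE).

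Markers of several cell types differed between the groups, some upward and some downward, in a table where 11.9% of all tested genes rose and 11.3% fell. The sums given here cover every listed marker in the count table, tested or not. Of 20 tested fibroblast and mesenchymal markers 8 rose and 1 fell (median log2 fold change 0.37). The summed level of this list was 573 to 731 CPM in MC-F7 and 1165 to 1316 CPM in MT-F7. ACTA2, smooth muscle actin, rose by a log2 fold change of 1.86 (edgeR adjusted p = 3.46e-05), while the mesenchymal factor TWIST2 fell by 2.15 (adjusted p = 0.0111). ACTA2 was at 68.6 to 101 CPM in MC-F7 and 259 to 390 CPM in MT-F7. TAGLN was at 111 to 192 CPM and 245 to 330 CPM, and these genes carried much of the rise in the sum. The other 11 did not pass, with COL1A2, DCN, LUM, THY1 and PDGFRA among them. Of 8 tested neural markers 4 rose and 1 fell (median 1.08), and the sum went from between 700 and 842 CPM to between 1050 and 1175 CPM. STMN2 was at 210 to 298 CPM in MC-F7 and 353 to 548 CPM in MT-F7. NES, which did not pass (edgeR adjusted p = 0.0831), was at 289 to 338 CPM and 361 to 464 CPM. STMN2 and NES carried much of the rise in this sum. PAX6 rose by a log2 fold change of 2.92 (adjusted p = 7.65e-07) and the neuronal ELAVL3 fell by 2.35 (adjusted p = 0.00044). Of 7 tested pluripotency markers 5 fell and none rose (median -1.19), with sums of 964 to 1605 CPM in MC-F7 and 594 to 655 CPM in MT-F7. POU5F1, which fell by 1.19 (adjusted p = 0.00119), alone made up 825 to 1456 CPM of the sum in MC-F7 and 486 to 557 CPM in MT-F7. The listed markers SOX2, LIN28B and TDGF1 were not analysed here. NANOG fell by 2.02 and ZFP42 by 2.73 on the log2 scale (adjusted p = 1.14e-05 and 1.30e-05). Of 4 tested trophoblast markers 2 fell (median -0.86), with KRT7 falling by 3.34 (edgeR adjusted p = 6.39e-07). The sum of this list was 53.1 to 79.6 CPM in MC-F7 and 8.28 to 9.64 CPM in MT-F7. KRT7 alone made up 49.7 to 75.6 CPM of the sum in MC-F7 and 5.83 to 7.05 CPM in MT-F7, TFAP2A and TFAP2C were at 0.15 and -0.02 on the log2 scale (adjusted p = 0.823 and 0.981), and CDX2 and HAND1 had 0 counts in all 6 libraries. Of 4 tested mesoderm and endoderm markers 1 rose and 2 fell (median -0.05), with KDR up by a log2 fold change of 1.06 (adjusted p = 0.00462) and FOXA2 falling by 3.26 (adjusted p = 3.11e-05), sums of 17.9 to 18.0 CPM against 14.7 to 17.3 CPM, and GATA4 and AFP at 0. The tables do not separate bovine reads from reads of the mouse feeders. The authors reported that a larger share of reads aligned to the bovine genome in MT-F7 than in MC-F7. They proposed that fixed feeders left less feeder contamination, so feeder RNA may be unequal between the groups. The part of any of these cell types, or of feeder RNA, in the values of the members was not tested.

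**Figure D4:**
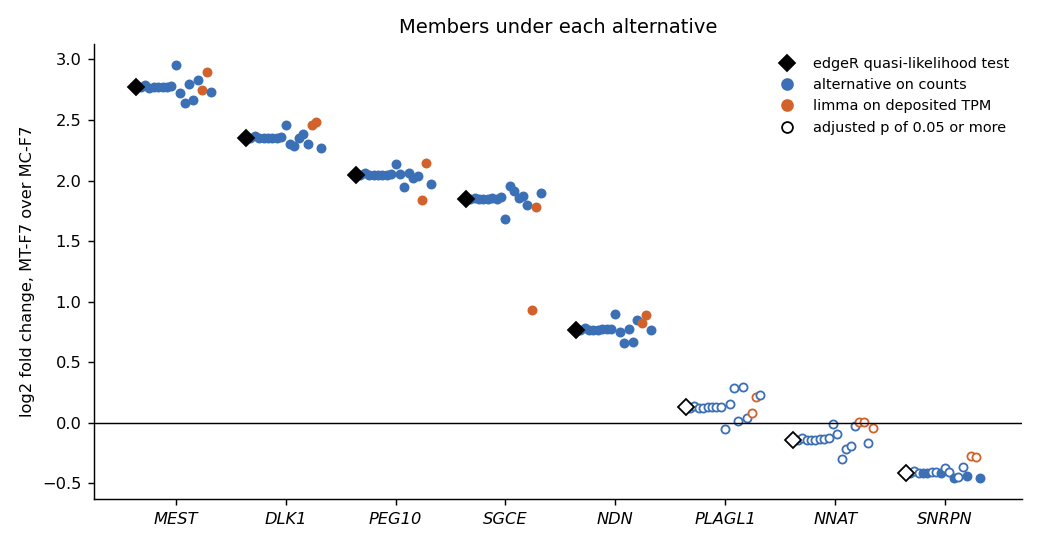
Log2 fold change of MT-F7 over MC-F7 for the 8 members of the count table under the quasi-likelihood test (black diamonds), the alternatives on counts (blue) and limma on TPM (orange), with open points where the adjusted p was 0.05 or more. MEST, DLK1, PEG10, SGCE and NDN stay filled and above 0 in every setting, PLAGL1 and NNAT are unfilled and near 0, and SNRPN is below 0 with filled and open points.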

How the data were processed

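RNA-seq of 3 MC-F7 and 3 MT-F7 libraries was used. The authors aligned reads with HISAT2 2.0.5 and counted them with featureCounts 1.5.0-p3, per the labels, and deposited raw counts by Entrez gene. The genome build and the strand setting were not given in the sources used here. The authors also deposited a table called TPM, which held a fixed ratio to the counts for 9681 of 9682 genes compared (tolerance 0.001). Its libraries summed to 154763 to 164394, so its values rank genes by length-scaled level but do not share the usual TPM total and carry the depth of each library. Of 19163 count identifiers, 19074 matched RefSeq symbols.

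Counts were filtered by filterByExpr (minimum count 10, minimum total 15), scaled by TMM (factors 0.971 to 1.04) and tested by edgeR 4.0.16 under R 4.3.3, without a block, with Benjamini-Hochberg adjustment over 13001 genes. PEG3 was tested with limma 3.58.1 on log2(TPM + 0.1), a change from the planned count test because its counts were not analysed here. The scripts were tested on simulated data. The alternatives were other scalings, filters and tests, DESeq2 1.42.0, limma on TPM, a replicate block and leaving out libraries. The members and gene lists were chosen with earlier results of these data known. From each list the called genes that averaged 1 CPM or more were named, at most 4 by size of change (2 for marker lists), together with the nearest tested genes, and a few of these are not reported here. Other genes are named for their role or as the ends of a range, and were chosen after their values were seen. A count of 3 was taken as the smallest detected amount, covering counting error only.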

Additional observations from a re-analysis of the deposited data

How the results depend on the processing

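The count of 5 members higher in MT-F7 was the same under all 17 alternatives on the count table and TPM, and PEG3 kept its call under all of its own. The count of members lower was 1 in place of 0 (SNRPN each time) under DESeq2, edgeR's likelihood ratio test, the replicate block and, chosen after the data were seen, without replicate 3 of both groups. Leaving out 1 library gave 0 to 1, with 1 without MC-F7 replicate 3 and without MT-F7 replicate 3. The adjusted p of SNRPN was 0.0145 with the replicate block, 0.0171 by DESeq2 and 0.0355 by the likelihood ratio test. Genes called over the whole table numbered 3016, 4674 with the replicate block and 1914 to 3093 with 1 library left out, the lowest without MC-F7 replicate 2.

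The replicate numbers were not used as a block in the main test. Same-numbered libraries correlated at 0.167, 0.0708 and 0.505 (replicates 1, 2 and 3) in their deviations from the group means. All 3 values were positive and that of replicate 3 was the highest, so they do not settle whether the libraries were paired. The block changed no call of a member other than SNRPN. Directions that reversed were all of values that had not passed the test. PLAGL1 was at -0.049 to 0.30 with 1 library left out (below 0 without MC-F7 replicate 1), and NNAT at 0.0039 and 0.0042 on log2(TPM + 1) and log2(TPM + 0.1). On log2(TPM + 0.1) with each library scaled to the same sum, chosen after the data were seen, NNAT was at -0.046. The BEGAIN log2 fold change was -0.42 to 0.13 (0.033 and 0.13 without MT-F7 replicates 1 and 2) and at 0.0092 and 0.011 on TPM. MAGEL2 was at -0.00020 to 0.15 (below 0 without MT-F7 replicate 1) and ZC2HC1B at -0.056 to 0.68 (below 0 without MC-F7 replicate 2). SGCE was at 0.93 and PEG3 at 0.35 on log2(TPM + 1), where the pseudocount is large beside their levels. The cause of the other changes was not tested. Over the alternatives the other paternally expressed genes had 3 higher in each and 0 to 1 lower, the maternally expressed genes 1 higher and 0 to 5 lower, the methylation genes 2 to 3 in each direction, the partners 4 to 5 higher and 1 to 4 lower, the genes near the members 2 to 7 higher and 0 to 3 lower, the fibroblast markers 6 to 9 higher and 0 to 2 lower, the neural markers 4 to 6 higher, the pluripotency markers 4 to 5 lower, the trophoblast markers 1 to 2 lower, and the mesoderm and endoderm markers 1 to 2 in each direction. With 3 libraries a group, exact tests of a single value cannot go below 0.1.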
